A study of Homo sapiens with 4 samples.

Results

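The miR-29 family was examined in miRNA sequencing (miR-seq) of U-251, an established human glioma cell line. Table rows were taken by name, as any miR-29a, miR-29b or miR-29c with or without a hairpin number or an arm, and 4 of the 746 miRNA names were members. These were miR-29a-5p and miR-29b-1-5p, encoded together on chromosome 7, and miR-29b-2-5p and miR-29c-5p, encoded together on chromosome 1. All 4 members had at least 10 counts in every library, as did 280 names in all.

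The data comprised 4 libraries of non-irradiated, wild-type U-251 cells, which formed 1 group of biological replicates. The labels give DMSO as the vehicle these cells received, whereas the study describes cells under basal conditions, and no other treatment was analysed here. The labels also describe a library made from captured mRNA, while a kit for miRNA libraries is named in the study's methods. With a single cell line and a single group, the design implies comparisons between members within a library and no comparison between conditions.

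MiR-29 is a conserved family of small RNAs whose 3p strands share a seed, the stretch of bases 2 to 8 that pairs with target mRNAs. Its known targets include collagens, elastin and other matrix genes, the de novo DNA methyltransferases and the survival gene MCL1. In the brain the family is known for rising with maturation, in neurons and in astrocytes. A miRNA hairpin is cut into a 5p and a 3p strand, of which usually only the strand loaded into AGO2 persists, and for miR-29 the 3p strand is generally the abundant product.

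The mature sequences of the family are shown because the seed defines it and because the strands differ in how well they separate the loci. They were taken from RefSeq on GRCh38.p14, where all 4 names matched, and are written 5′ to 3′ with the seed in capitals.
miR-29a-3p: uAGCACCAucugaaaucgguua
miR-29b-3p: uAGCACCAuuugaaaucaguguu
miR-29c-3p: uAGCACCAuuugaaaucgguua
miR-29a-5p: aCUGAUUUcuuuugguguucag
miR-29b-1-5p: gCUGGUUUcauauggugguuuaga
miR-29b-2-5p: cUGGUUUCacaugguggcuuag
miR-29c-5p: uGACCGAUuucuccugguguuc

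The 3p strands all carried the seed AGCACCA, which only these 3 of the 2370 mature names in RefSeq hold. MiR-29a-3p and miR-29c-3p differed by C10U alone, with positions counted from the 5′ end of miR-29a-3p. MiR-29b-3p ends in AGUGUU, a motif known for directing miR-29b to the nucleus, and 2 mature names in RefSeq, or 0.0844%, end in these letters. The 5p strands had 4 different seeds. Aligned with a shift of 1 base, miR-29b-1-5p and miR-29b-2-5p differed over 22 bases by U11C and U19C, counted from the 5′ end of miR-29b-1-5p.

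The hairpins of miR-29b are shown because both hold the same 3p strand on different chromosomes. The 5p strand and then the 3p strand stand in capitals.
MIR29B1: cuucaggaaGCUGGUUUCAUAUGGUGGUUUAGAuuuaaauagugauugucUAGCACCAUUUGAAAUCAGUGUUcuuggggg
MIR29B2: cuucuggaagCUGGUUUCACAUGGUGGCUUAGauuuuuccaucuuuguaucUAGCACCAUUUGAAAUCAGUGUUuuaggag

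The longest run shared by these hairpins was 25 bases, which covers the whole 3p strand. A read of miR-29b-3p therefore carries no mark of its locus. For the other hairpin pairs of the family the longest shared run was between 11 and 22 bases.

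In the GENCODE annotation of GRCh38, MIR29A lies at chr7:130876747-130876810 and MIR29B1 at chr7:130877459-130877539, both on the minus strand, with 648 bases between them. Both lie inside the long non-coding gene LINC-PINT. MIR29A was intronic in all 11 LINC-PINT transcripts that span it, whereas MIR29B1 was intronic in 11 of 12 and within an exon of 1. MIR29C lies at chr1:207801852-207801939 and MIR29B2 at chr1:207802443-207802523, on the minus strand with 503 bases between them. Their host is the long non-coding gene MIR29B2CHG, where each was intronic in 4 of 5 spanning transcripts and within an exon of 1.

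The table used here names each member by its 5p strand. This holds for most of the table: of 499 hairpins that have both strands in RefSeq and at least 1 of them named in the table, 486 (97.4%) were listed under the 5p name only. Counts are given below under the names in the table, and which strand the reads came from was not tested. Each count is of whole short reads, so levels were compared between names without scaling by length. How well the library preparation captured each sequence was not tested.

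MiR-29a-5p, from chromosome 7, was the most abundant member. It was counted 55525, 61817, 65653 and 55107 times in replicates 1 to 4. As a share of all miRNA counts of the library this was 0.443%, 0.468%, 0.531% and 0.432%, with a mean of 0.468% ± 0.0443 (SD, n = 4). Replicate 3 was the highest and replicates 1, 2 and 4 lay close together. By mean share it ranked 26th, and within single libraries it ranked 26th or 27th.

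MiR-29b-1-5p, its neighbour on chromosome 7, had 4363, 2860, 4248 and 3363 counts in replicates 1 to 4. Its share was 0.0348%, 0.0216%, 0.0344% and 0.0264%, with a mean of 0.0293% ± 0.00640 (SD, n = 4) and rank 105. Replicates 1 and 3 were the high libraries and replicate 2 was the low one.

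MiR-29b-2-5p, from chromosome 1, had 3530, 2380, 3452 and 2620 counts in the same order. Its share was 0.0281%, 0.0180%, 0.0279% and 0.0205%, with a mean of 0.0237% ± 0.00516 (SD, n = 4) and rank 116. The same libraries were high and low as for miR-29b-1-5p.

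MiR-29c-5p, also from chromosome 1, was the least abundant member, with 2249, 1352, 1847 and 1447 counts. Its share was 0.0179%, 0.0102%, 0.0149% and 0.0113%, with a mean of 0.0136% ± 0.00351 (SD, n = 4) and rank 136. Replicate 1 was the highest and replicate 2 the lowest. Even this member lay above the median name, whose mean share over the 280 names was 0.00724%.

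**Figure D1:**
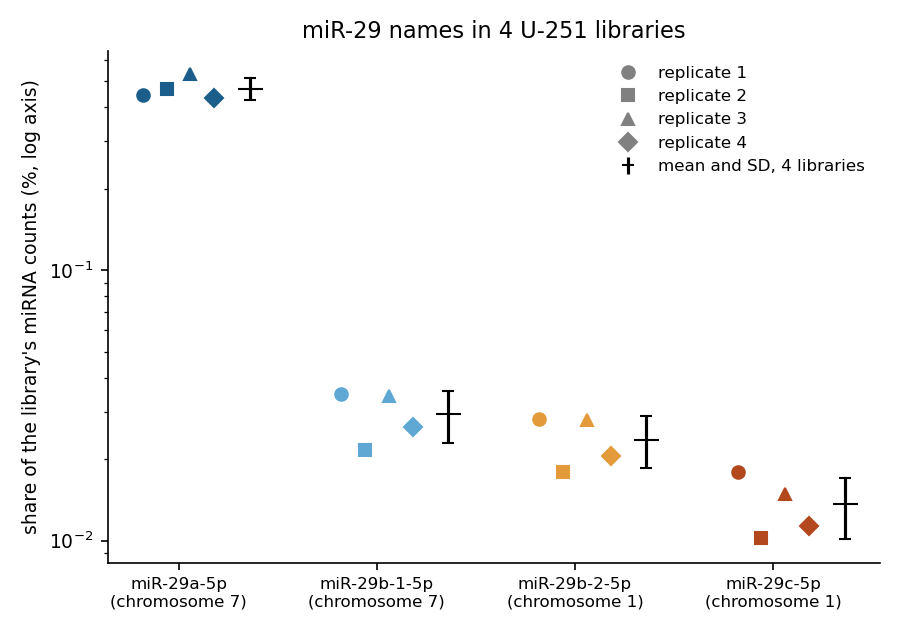
Share of miRNA counts (percent, log axis) of the 4 miR-29 names. Points are libraries, marked by replicate, and black bars give the mean and SD of 4 libraries. MiR-29a-5p lies between 0.432% and 0.531%, above the other members, none of which exceeds 0.0348%.

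**Figure D2:**
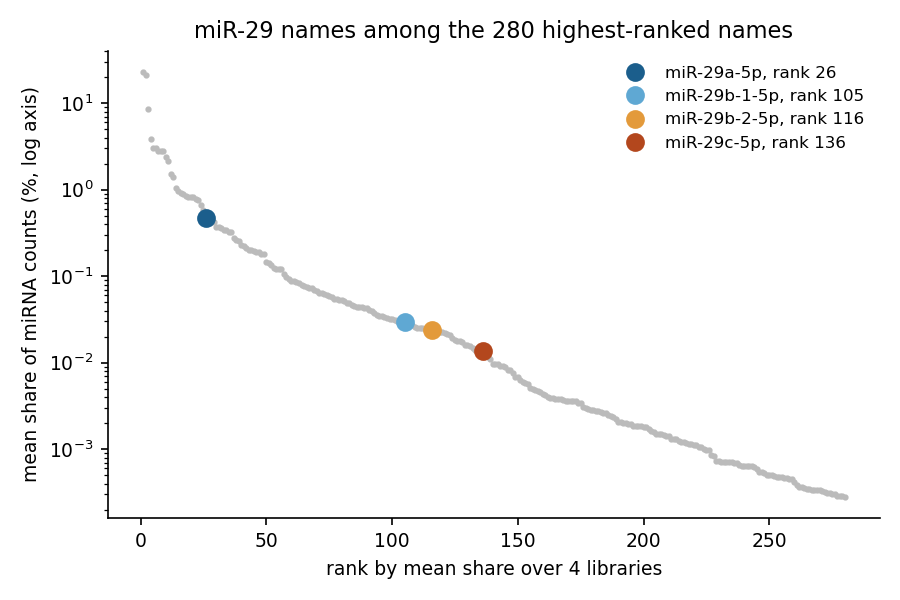
Mean share over 4 libraries (percent, log axis) against rank, in grey, with the 4 miR-29 names in colour. Shown are the 280 highest-ranked of all names, which are not the same set as the 280 with at least 10 counts in every library. MiR-29a-5p stands at rank 26, and the other members stand between ranks 105 and 136.

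Together the members held 0.524%, 0.518%, 0.608% and 0.490% of the counts in replicates 1 to 4, with a mean of 0.535% ± 0.0509 (SD, n = 4). MiR-29a-5p supplied 87.6% ± 2.40 (SD, n = 4) of the family's counts. The shares of the family were 5.46% ± 1.01 for miR-29b-1-5p, 4.41% ± 0.792 for miR-29b-2-5p and 2.54% ± 0.622 for miR-29c-5p (SD, n = 4). The libraries differed in this composition, since miR-29a-5p made up 84.6% of the family in replicate 1 and 90.4% in replicate 2.

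The libraries had between 12363104 and 13214969 counts in all, so the 95% Wilson intervals of the shares were narrow. For miR-29c-5p in replicate 2, the smallest count, the interval ran from 0.00970% to 0.0108%. For miR-29a-5p in replicate 3 it ran from 0.527% to 0.535%. Such intervals cover counting error only. The counting error of a member lay between 0.390% and 2.72% of its value, below the spread between libraries given next.

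The coefficient of variation (SD over mean) of the share between libraries was 9.46% for miR-29a-5p, a value that only 27 of the 280 names undercut (9.64%). It was 21.8% for both miR-29b-1-5p and miR-29b-2-5p and 25.8% for miR-29c-5p, beside a median of 20.1% over the 280 names. MiR-29a-5p was thus among the steadiest of the 280 names, while the other members varied about as much as the median name. Names of like abundance were not compared separately. The value of miR-29a-5p depended on replicate 3, without which it was 4.08%. No library stood apart from the other 3 by Dixon's ratio for any of the 4 members, where 11.1% of the 280 names had such a library.

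Within every library the order was miR-29a-5p, miR-29b-1-5p, miR-29b-2-5p and miR-29c-5p. All 6 pairs of members thus kept the same order in 4 of 4 libraries, which 91.9% of all pairs among the 280 names did. MiR-29a-5p was 16.2 times as abundant as miR-29b-1-5p, a mean log2 ratio of 4.02 ± 0.32 (SD, n = 4). The mean log2 ratio of miR-29a-5p to miR-29c-5p was 5.14 ± 0.37 (SD, n = 4), or 35.2-fold. For each of the 6 pairs the two-sided exact sign-flip permutation test gave p = 0.13, also after Benjamini-Hochberg adjustment over the 6 pairs, and this is the smallest p that 4 libraries allow.

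The loci were compared by the summed counts of their members. The sum for chromosome 7, miR-29a-5p and miR-29b-1-5p, was 10.4, 17.3, 13.2 and 14.4 times the sum for chromosome 1 in replicates 1 to 4. The mean log2 ratio was 3.76 ± 0.31 (SD, n = 4; exact sign-flip test, two-sided, p = 0.13, the smallest possible). Chromosome 7 names held 93.0% ± 1.40 (SD, n = 4) of the family's counts. In these counts the excess lay in miR-29a-5p, which supplied 87.6% ± 2.40 (SD, n = 4) of the family's counts. With only the miR-29b names the mean log2 ratio of chromosome 7 to chromosome 1 was 0.31 ± 0.04 (SD, n = 4). Their hairpins hold the same 3p strand, and whether both names count the same reads was not tested. The miR-29b ratio therefore does not measure the output of either locus.

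The miR-29b names were nearly level and moved together. MiR-29b-1-5p exceeded miR-29b-2-5p by 1.24-fold, 1.20-fold, 1.23-fold and 1.28-fold in replicates 1 to 4. This order held in 4 of 4 libraries, as it did for 7.93% of the pairs whose mean log2 ratio was no larger. That set includes pairs much nearer to equal than the miR-29b names, for which a fixed order is less likely. The share therefore does not show that the miR-29b order was unusual. The SD of their log2 ratio was 0.0394, and only 0.151% of the 39060 pairs of names had a smaller one. If both counts were of independent reads, counting error alone would give an SD of 0.0360, little below the SD found. Whether the reads were independent was not tested.

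Names of other hairpins that share an identical 3p strand were looked at in the same way, a choice made after the miR-29b values were seen. RefSeq gives 8 such pairs of 5p names in the table, of which 7 had at least 10 counts in some library. Apart from miR-29b, the names of a pair lay between 1.00-fold and 1.08-fold of each other in every library with both values. For miR-103a-1-5p and miR-103a-2-5p, for example, the SD of the log2 ratio was 0.000476, below the 0.00635 that independent reads would give. In 5 of the 7 pairs the SD was under this counting value, and miR-29b was not among them. The miR-29b pair had the largest ratio of the 7. The split of miR-29b between the loci rests on these counts, and whether the pairs count the same reads was not tested.

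**Figure D3:**
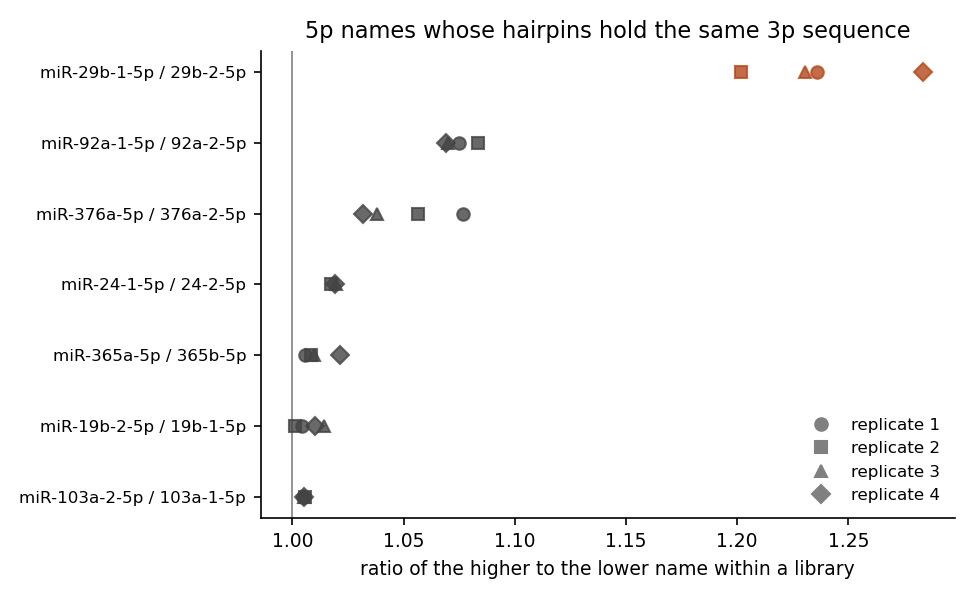
Ratio of the higher to the lower count, within a library, for 7 pairs of 5p names whose hairpins hold an identical 3p strand. Points are libraries, and the line marks equal counts. The miR-29b pair, in red, lies between 1.20 and 1.28, and the other pairs lie between 1.00 and 1.08. MiR-24-1-5p is blank in replicate 1, so its pair has 3 points.

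The ratios of members were also compared within and between the loci. The log2 ratio of miR-29a-5p to miR-29b-1-5p, both from chromosome 7, had an SD of 0.316, and 29.4% of all pairs of names were steadier. On chromosome 1, the log2 ratio of miR-29b-2-5p to miR-29c-5p averaged 0.81 with an SD of 0.110, with 2.54% of pairs steadier. MiR-29b-1-5p and miR-29c-5p, from different chromosomes, had a log2 ratio that averaged 1.11 with an SD of 0.121, and 3.41% of pairs were steadier. The ratios of miR-29a-5p to the chromosome 1 names had SDs of 0.301 for miR-29b-2-5p and 0.373 for miR-29c-5p, on either side of that for its chromosome 7 neighbour. The SD of the miR-29a-5p ratios was 10.4 to 12.7 times the counting error of independent reads, against 2.47 and 2.83 times for the ratios of miR-29b names to miR-29c-5p. The difference between these SDs was not tested, and ratios that share a member are not independent. Whether the miR-29b names count the same reads was not tested either. Their ratios to miR-29c-5p therefore do not separate steadiness within a locus from steadiness between loci.

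**Figure D4:**
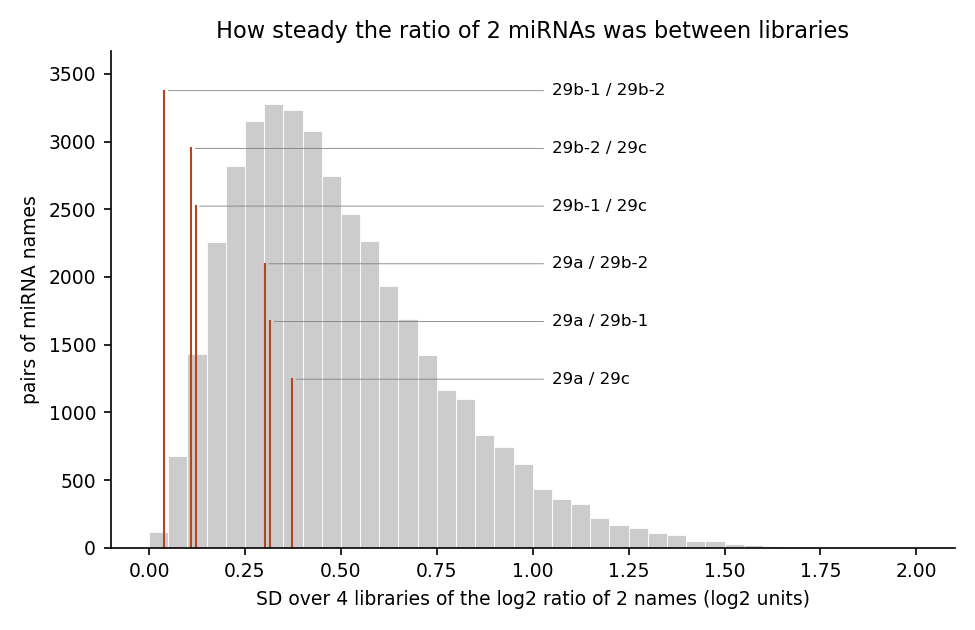
Distribution of the SD, over 4 libraries, of the within-library log2 ratio for all 39060 pairs of the 280 names, in grey, with the 6 miR-29 pairs marked by red lines whose heights carry no value. The 3 pairs without miR-29a-5p lie at 0.121 or below, and the 3 with it lie between 0.301 and 0.373.

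Centred on its own mean, miR-29a-5p deviated by -0.08, 0.00, 0.19 and -0.11 in log2 share over replicates 1 to 4. MiR-29c-5p deviated by 0.43, -0.38, 0.17 and -0.23. The miR-29b names differed in this measure by at most 0.0526, at 0.28 and 0.28 in replicate 1 and at -0.41 and -0.37 in replicate 2. Replicate 3 was above the mean and replicate 4 below it for all 4 members, whereas in replicates 1 and 2 miR-29a-5p parted from the others.

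**Figure D5:**
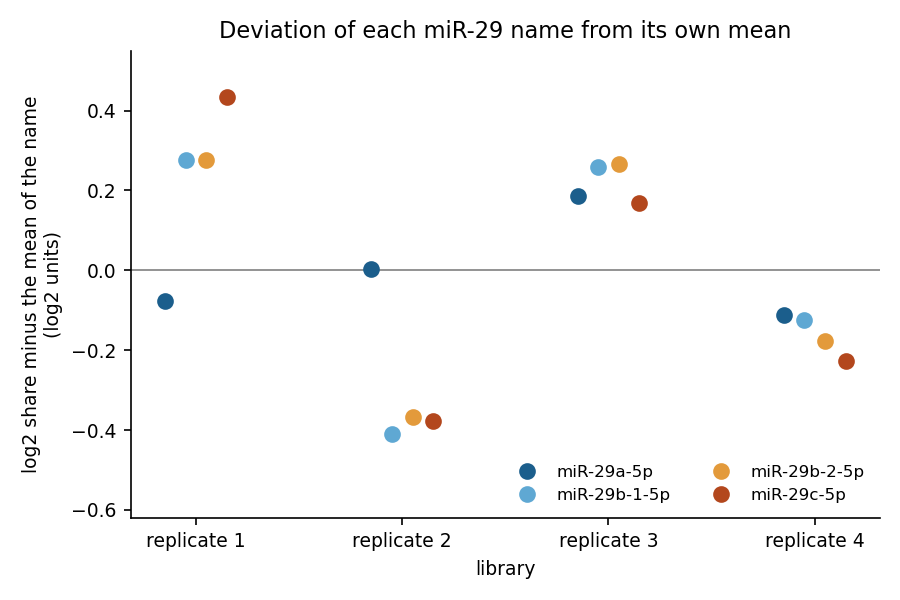
Deviation of each miR-29 name from its own mean log2 share (log2 units) in each of 4 libraries. In replicate 1 miR-29a-5p lies at -0.08 and the other members between 0.28 and 0.43. In replicate 2 it lies at 0.00 and the others between -0.41 and -0.37.

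Of the 31 names with a library standing apart, 21 had replicate 1 as that library, 3 had replicate 3 and 7 had replicate 4, so the members are given for replicate 1 separately. The log2 share in replicate 1 minus the mean of the other libraries was -0.10 for miR-29a-5p, 0.37 for miR-29b-1-5p, 0.37 for miR-29b-2-5p and 0.58 for miR-29c-5p. The hairpins had GC contents of 32.8%, 39.5%, 39.5% and 44.3% in the same order, all below the median of 48.3% over the 230 names whose hairpin was matched. The part of GC content in these values was not tested. Without replicate 1 the log2 ratio of miR-29a-5p to miR-29c-5p was 5.31, and the locus ratio was 3.89.

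The names whose profile over the 4 libraries was most like each member were found by the root mean square difference of centred log2 shares, over 276 names outside the family. With 4 libraries this is a description. For miR-29a-5p they were miR-28-5p with a difference of 0.0311, miR-148b-5p with 0.0667 and miR-30a-5p with 0.0700, against a median of 0.246. MiR-28-5p held between 0.113% and 0.134% of the counts, with replicate 3 the highest and replicate 4 the lowest, as for miR-29a-5p. For miR-29c-5p the nearest was miR-7-5p with 0.0454, followed by miR-424-5p with 0.0998 and miR-518b with 0.123. MiR-7-5p held 0.264%, 0.139%, 0.217% and 0.159%, which again made replicates 1 and 3 the high libraries.

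Both miR-29b names had the same nearest names outside the family, namely miR-518b, miR-101-2-5p and miR-101-5p. Shared neighbours follow from the miR-29b profiles being nearly the same. The miR-101 names also had nearly the same profile as each other, at 0.23 and 0.23 in replicate 1 and -0.34 and -0.34 in replicate 2. They are therefore not separate observations. The differences from miR-29b-1-5p were 0.0819, 0.0868 and 0.0882. MiR-518b is a rare name with a mean share of 0.000103%, so its profile carries more counting error than the others. Among all names, the nearest to each miR-29b name was the other miR-29b name, at 0.0341. This restates the small SD of their log2 ratio, and whether they count the same reads was not tested. MiR-29a-5p was farther from miR-29b-1-5p, with a difference of 0.273 and 152 other names nearer to miR-29a-5p.

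The names directly above and below each member by mean share were compared with it within libraries. Above miR-29a-5p stood miR-24-1-5p with 0.587% ± 0.392 (SD, n = 4, with the blank in replicate 1 taken as 0). Below miR-29a-5p stood miR-31-5p with 0.467% ± 0.114 (SD, n = 4). MiR-29b-1-5p stood between miR-1322 and miR-320b, and miR-29c-5p between miR-320d and miR-708-5p. MiR-29b-2-5p stood between miR-149-5p and miR-34a-5p, a known p53 target. Of the 8 comparisons, 2 had the same order in every library with both values, those with miR-24-1-5p and miR-149-5p, which rest on 3 and 2 libraries. For the other 6 the order was mixed between libraries. Neighbours are close in mean share by their choice, so this describes the ranks and tests nothing.

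Other miRNAs known for acting on matrix and fibrosis genes were measured beside the family. Of 13, all had a name with a value, and 10 had at least 10 counts in every library. Their median mean share was 0.00163%, against 0.000183% over all names with a value. MiR-21-5p at 3.07% ± 1.66 and miR-30a-5p at 0.823% ± 0.0383 (SD, n = 4) lay above miR-29a-5p. The miR-200 family names of this list, known for holding cells in an epithelial state, lay at or below 0.00163%. MiR-21-5p was higher in replicate 1 than in the others, which miR-29a-5p was not.

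Of 6 miRNAs known beside miR-29 for targeting DNA methyltransferases, all had a value, 5 of them at least 10 counts in every library, and their median mean share was 0.0721%. The highest was miR-148b-5p at 0.134% ± 0.0188 and the next miR-342-5p at 0.107% ± 0.00730 (SD, n = 4). No name of this list lay above miR-29a-5p, and 5 lay above miR-29c-5p. The exception was miR-143-5p at 0.000107% ± 8.18e-05 (SD, n = 4), which was blank in replicate 3 and taken as 0 there.

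The cell type on the label was set against marker miRNAs. The glioma list, miR-21 and miR-10b, summed to between 2.12% and 5.62% of the counts, or at most 2.44% without replicate 1, and nearly all of it was miR-21-5p. Of the neuron list, miR-124-5p was blank in every library, while the list summed to between 0.201% and 0.317%, mostly from miR-128-1-5p. The erythroid list summed to at most 0.0217% with miR-451a blank in every library, the epithelial list to at most 0.00344% and the liver list to at most 0.00358%. The muscle list summed to at most 0.000391% and the white blood cell list to at most 0.000290%. In each of these last lists only 2 of 3 miRNAs had a name that could be counted.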

How the data were processed

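Small RNA of 4 libraries of U-251 cells, 1 group of biological replicates, was sequenced. Per the study's methods and the submitters' notes, base calls were converted with bcl2fastq 2.20, adaptors were trimmed with Trimmomatic, long reads were discarded, and the rest were mapped to hg38 with Bowtie and counted with miRDeep2. The authors deposited unnormalized values per miRNA name, handled here as estimated counts because 40 names, none of them a miR-29 member, have values that are not whole. The handling of molecular identifiers and the miRNA annotation release are not given in the sources used here. Blank cells were treated as 0 counts in shares, means, SDs and ranks. A true count of 0 allows up to 3 counts, but a blank need not be a true 0. MiR-132-5p, for example, had 1797 counts in replicate 1 and was blank in replicates 2 to 4.

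Shares, ratios, exact sign-flip tests and profile distances were calculated in Python 3.11.15 (numpy 2.4.6, scipy 1.17.1, pandas 2.3.3, with matplotlib 3.10.9 for plots). Counts were rounded for the scaling factors of DESeq2 1.42.0 and edgeR 4.0.16, run in R 4.3.3, and neither was used for a test. Coefficients of variation, Dixon's ratios, pair ratios and profile distances across names used those with at least 10 counts in every library, and these steps were tested on simulated data. Ranks and neighbours by mean share used all names. Hairpin positions follow GENCODE release 44, whose GRCh38 build is that of hg38, and coordinates count from 1.

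Named miRNAs are the members, the names directly above and below each by mean share, the 3 nearest profiles of each, and the fixed lists. Names of pairs with an identical 3p strand were chosen after their values were seen. The members and lists were chosen with earlier results of these data known. Irradiated cells and the other assays of the study were not analysed here.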

Additional observations from a re-analysis of the deposited data

Results flagged for a closer look

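Dixon's ratio was taken for 46 results to find a single library far from the rest, and 7 passed its 95% critical value, where chance gives about 2.3 and the share found over the 280 names with at least 10 counts in every library gives about 5.09. None was a miR-29 name, a ratio between members or the family share. In replicate 1, miR-21-5p held 5.55% against at most 2.40% in the others (ratio 0.911), and miR-192-5p held 0.00597% against at most 0.00343% (ratio 0.857). In replicate 3, miR-148b-5p, a name with a profile near that of miR-29a-5p, held 0.162% against 0.122% to 0.127% (ratio 0.873), and miR-214-5p held 0.000841% against at least 0.00129% (ratio 0.877). In replicate 4, miR-320d held 0.0113% against at least 0.0146% (ratio 0.878) and miR-185-5p 0.0644% against at least 0.0798% (ratio 0.985). Also in replicate 4, miR-150-5p held 0.000290% against at most 0.000121% (ratio 0.905).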

How the results depend on the processing

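Under TMM, upper-quartile and DESeq2 scaling, and with only names that passed the count minimum or had a value in every library in the denominator (the latter chosen after seeing the data), the share of each member and of the family moved by less than the SD between libraries. With Let-7 names left out of the denominator the shares were by construction higher, at 1.26% for miR-29a-5p, 0.0784% for miR-29b-1-5p, 0.0632% for miR-29b-2-5p, 0.0362% for miR-29c-5p and 1.43% for the family. Counting miR-29b once, also chosen after seeing the data, gave a family share of 0.511%. Without one replicate the family share lay between 0.511% and 0.550%, the locus log2 ratio between 3.65 and 3.89, and all 6 pairs of members kept their order. The locus log2 ratio was 5.14 with only miR-29a-5p and miR-29c-5p and 0.31 with only the miR-29b names. Adding 1 count to each member or sum changed no direction.

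Without one replicate the coefficient of variation ranged from 4.08% to 11.6% for miR-29a-5p, the lowest without replicate 3. It ranged from 14.9% to 24.7% for miR-29b-1-5p and from 16.9% to 23.7% for miR-29b-2-5p, both lowest without replicate 2. For miR-29c-5p it ranged from 20.2% without replicate 1 to 31.6% without replicate 3. Moves of this coefficient were set against the SD of the leave-one-out values. The number of names with a library standing apart, 31, was 38 with TMM factors, 40 with upper-quartile factors and 28 on the log2 scale, and no member was among them. No paired analysis was possible because only 1 group was sequenced. The exact sign-flip test cannot fall below p = 0.13 with 4 libraries or 0.25 with 3, so it says nothing about stability.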
